A study of Mus musculus with 24 samples.

Results

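Cytosolic ribosomal protein genes encode the proteins of the large and small subunits of the ribosome that works in the cytoplasm. The members were the protein-coding mouse genes whose symbol is Rpl or Rps followed by a number (with an optional a, x or l and a further number), together with the stalk genes Rplp0, Rplp1 and Rplp2 and with Rpsa. This rule found 83 genes of 35519 with transcripts in the files: 48 of the large subunit, 32 of the small subunit and the 3 of the stalk. Of the 83, 80 had enough reads to be tested. The other 3, Rpl3l, Rpl10l and Rpl39l, are related copies of main-form genes and had 3, 1 and 14 reads in all 24 libraries together.

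A ribosome holds a single copy of most of these proteins (the stalk is the exception), bound to ribosomal RNA, and their genes are usually expressed at high and similar levels in every cell. Their messengers belong to a class that starts with a C followed by a run of pyrimidines, called the 5′ terminal oligopyrimidine (TOP) tract, through which mTOR signalling and the RNA-binding protein Larp1 control how much of them is translated. Mammalian genomes also carry many processed pseudogenes and retrocopies of them, which are close in sequence to the parent messenger.

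Smart-Seq2, which copies whole transcripts and keeps neither strand nor molecular identifiers, was applied to microglia, macrophages that live in brain tissue. The cells, sorted from whole brain of C57BL/6 mice, carried CD11b and Fcrls and lacked Ly6C, and 1000 of them were lysed for each library. There were 8 groups: females and males, each wild type (WT) or lacking neuroligin-4, a synaptic adhesion protein (NL4-/-), and each in a control and a phagocytosis state. Every control group had 2 libraries and every phagocytosis group 4 (the series' text names 5, and 4 are used here). The labels give no age, do not say what was taken up or whether this happened in the animal or in culture, and do not describe how the NL4-/- allele was made. The series' text calls the samples biological replicates, but no label ties a library to an animal.

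Total expected reads per library ran from 421107 to 1013797. The 10 microglia markers summed to 33157 to 47345 CPM (reads of a gene scaled to a common total of gene-assigned reads) in control libraries and 21565 to 46644 CPM in phagocytosis libraries, with all 10 detected and all 10 lower on average in the phagocytosis libraries. Markers of border-associated macrophages were higher in 8 of 8 cases but low, at 21.2 to 59.0 against 66.3 to 391 CPM, and the 6 neuronal markers that had transcripts summed to 2.93 to 11 against 12.6 to 107 CPM, mostly through Uchl1 (mean 2.02 against 32.4 CPM). Monocyte markers were higher in 6 of 6 cases (sum 17.4 to 69.9 against 24.2 to 171 CPM) and oligodendrocyte markers in 5 of 6 (121 to 184 against 167 to 371 CPM). Lymphocyte markers summed to 16.7 to 79.0 against 12 to 55.7 CPM. Endothelial markers were higher in 2 of 5 cases (15.8 to 31.0 against 14.4 to 63.4 CPM), with Cldn5 at 0 throughout. Astrocyte markers were higher in 5 of 6 cases (58.7 to 134 against 73.2 to 139 CPM). Neutrophil markers were higher in 3 of 5 (418 to 653 against 271 to 608 CPM). Single genes held most of several sums: Csf3r for neutrophils (mean 533 against 407 CPM) and Slc1a3 for astrocytes (89.5 against 60.8 CPM). So did Siglec1 for border-associated macrophages (31.4 against 116 CPM), while Cnp was the highest oligodendrocyte marker (83.6 against 104 CPM). Erythroid markers were higher in 4 of 5 (1.13 to 89.7 against 1.30 to 931 CPM). Genes induced by tissue dissociation summed to 728 and 1143 CPM in the female NL4-/- controls, against 3532 to 4136 CPM in the other controls and 1844 to 6133 CPM in phagocytosis libraries. Reads of satellite-like transcripts took 4.07 to 23.3% of control and 1.52 to 16.3% of phagocytosis libraries, and passed 20% in 3 controls: male WT control 2 and library 1 of the NL4-/- controls of each sex. The part of these differences in the results below was not tested.

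To show pyrimidine stretches near the start, the bases around the RefSeq transcription start (build GRCm38.p6) are printed for some members. These are the 4 members that rose most between the states, and Rps4x and Rpl39, which were among the 4 that differed least. Each line runs 5′ to 3′ from 30 bases before the start through the first 15 transcribed bases. Capitals mark the first stretch of 5 or more pyrimidines read from a C within 5 bases of the start. Further pyrimidines may precede it, as in Rpl35. The first transcribed base is base 1. The stretch begins at base -1 in Rps6, 2 in Rpl18, -5 in Rpl35, 5 in Rps2 and -4 in Rpl39. Rps4x has none. Such a stretch need not be a TOP tract.
Rps6, chr4:86857353-86857397, minus strand: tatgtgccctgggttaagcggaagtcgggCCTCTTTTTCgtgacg
Rpl18, chr7:45718041-45718085, plus strand: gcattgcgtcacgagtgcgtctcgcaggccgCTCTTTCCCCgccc
Rpl35, chr2:39005117-39005161, minus strand: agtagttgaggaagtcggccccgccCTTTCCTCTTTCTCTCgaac
Rps2, chr17:24720033-24720077, plus strand: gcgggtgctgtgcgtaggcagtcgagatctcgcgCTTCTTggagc
Rpl39, chrX:37085208-37085252, minus strand: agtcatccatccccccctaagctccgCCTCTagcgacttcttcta
Rps4x, chrX:102189377-102189421, minus strand: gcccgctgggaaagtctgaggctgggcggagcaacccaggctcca

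Of the 83 members, 63 matched a RefSeq start by symbol, and 29 of these (46.0%) had such a stretch, against 19.7% of the 27025 genes in the table. Here and below a gene counted if any of its annotated starts matched, and 10 members had several starts. The 27025 genes were not limited to those tested for expression. A stretch read from a C at the annotated first base was found in 20.6% of members and 3.01% of all genes. TTCCGG, the core of ETS factor sites, stood on either strand in the 300 bases around the start of 55.6% of members and 16.7% of all genes, and CACGTG, which Myc and related factors bind, in 9.52% and 8.09%. Within the 60 tested members with a start, 22 of the 29 with a stretch near the start rose between the states (median log2 fold change 0.53) and 20 of the 31 without one did (median 0.46). Of all 9803 tested genes, 8.41% rose. The shares that rose among all genes with and without a stretch are not given here. The difference between these groups was not tested, so these counts do not tie the rise to the stretch.

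The share of reads taken by the 83 genes was higher in the phagocytosis libraries. In control libraries it ran from 2.26% (male WT control 2) through a median of 3.03% to 3.49% (female WT control 1), and in phagocytosis libraries from 3.13% (female NL4-/- phagocytosis 4) through 4.36% to 5.75% (female WT phagocytosis 2). The ranges overlapped only through female NL4-/- phagocytosis 4, since the other 15 phagocytosis libraries lay above the highest control. The means were 2.94% ± 0.436 (SD, n = 8) and 4.35% ± 0.733 (SD, n = 16), a ratio of 1.48. These shares are a description and carry no test.

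Both subunits and the stalk took part. Large-subunit genes went from a mean of 1.46% to 2.13% of reads (ratio 1.45), small-subunit genes from 1.23% to 1.85% (1.51), and the stalk genes from 0.245% to 0.369% (1.51). Within each sex and genotype, all 4 phagocytosis libraries lay above both controls in the share of all 83 genes and of either subunit. For the stalk this held in WT females and NL4-/- males, while 3 of 4 libraries lay above in NL4-/- females and 2 of 4 in WT males. The ratio of means for the 83 genes was 1.62 for WT and 1.39 for NL4-/- females, and 1.47 for WT and 1.45 for NL4-/- males. With satellite-like reads left out of the total, the means were 3.40% and 4.64% (ratio 1.36), and 14 of the 16 phagocytosis libraries lay above the highest control. In NL4-/- females 3 of 4 phagocytosis libraries then lay above both controls, and in the other groups all 4 did. The ratio was then 1.52 for WT and 1.27 for NL4-/- females, and 1.37 for WT and 1.30 for NL4-/- males. In bulk samples, a different mix of cells and a different amount of messenger per cell cannot be told apart.

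**Figure D1:**
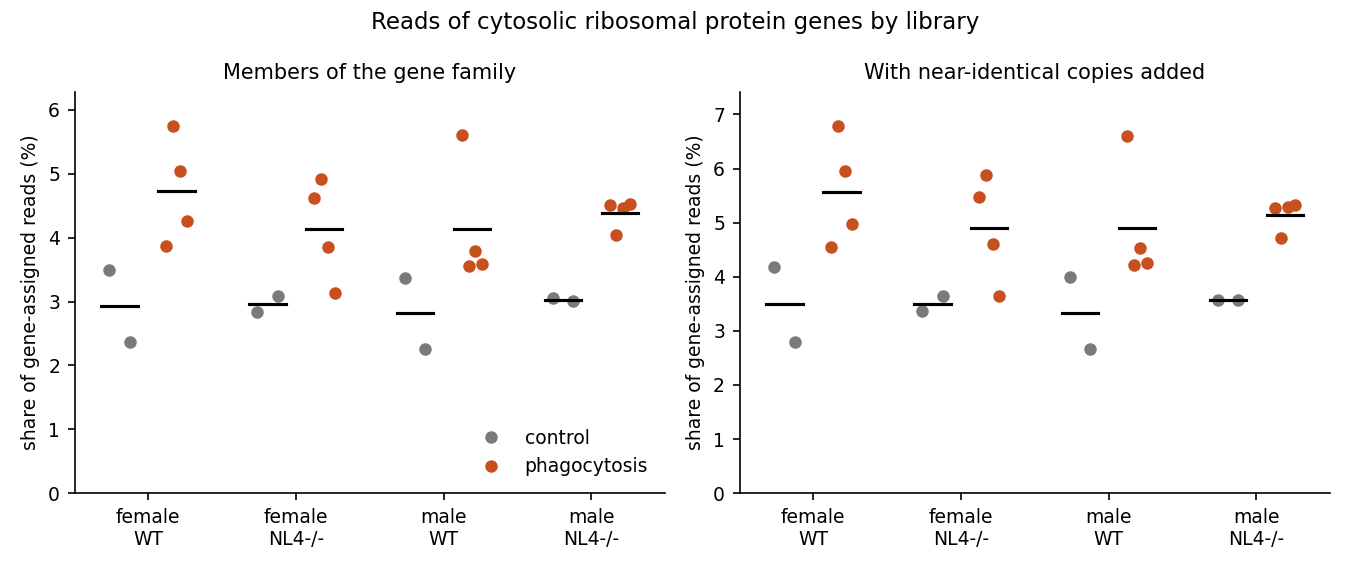
Share of gene-assigned reads in the 83 cytosolic ribosomal protein genes (left) and in these genes with their near-identical copies (right), in percent, by sex and genotype. Each point is a library, grey for control (n = 2 per group) and orange for phagocytosis (n = 4), and the black line is the group mean. In each sex and genotype the phagocytosis points lie above the control points in the left panel.

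Member by member, 60 of the 80 tested genes rose between the states and none fell (edgeR quasi-likelihood test averaged over the 4 combinations of sex and genotype, Benjamini-Hochberg adjusted p under 0.05). Over all 9803 genes tested, 8.41% rose, 5.18% fell and 13.6% changed in either direction. The fitted log2 fold change was above 0 for all 80 members, with a median of 0.47 against -0.01 for all tested genes, and the middle of the distribution was narrow (quartiles 0.38 and 0.60). By subunit, 32 of 45 large-subunit, 26 of 32 small-subunit and 2 of 3 stalk genes rose, with medians of 0.48, 0.46 and 0.62. The count was 22 without the 3 control libraries over 20% satellite-like (3.84% of all genes changed in that fit), 36 without female WT control 2 (7.43%) and 38 with phagocytosis libraries 3 and 4 only (8.33%). The median of the members stayed between 0.39 and 0.53 in these fits. Without the 3 satellite-rich controls, NL4-/- females and both male groups keep a lone control. Calls said below to end without the satellite-rich controls come from that fit. The part of lost replication in these counts and calls was not tested.

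Members are short genes. Their median effective length was 515 bases, against 1953 bases for all tested genes, and 73 of the 80 were under 1000 bases. Among the other genes, 12.3% of 1611 under 1000 bases rose (median log2 fold change 0.12) and 6.98% of 8112 longer ones did (median -0.03). With counts scaled for length from the deposited TPM (transcript levels per length on a common total), 47 members rose, beside 8.84% of all genes changed in that fit. The part of transcript length in the members' rise was not tested beyond these values.

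**Figure D2:**
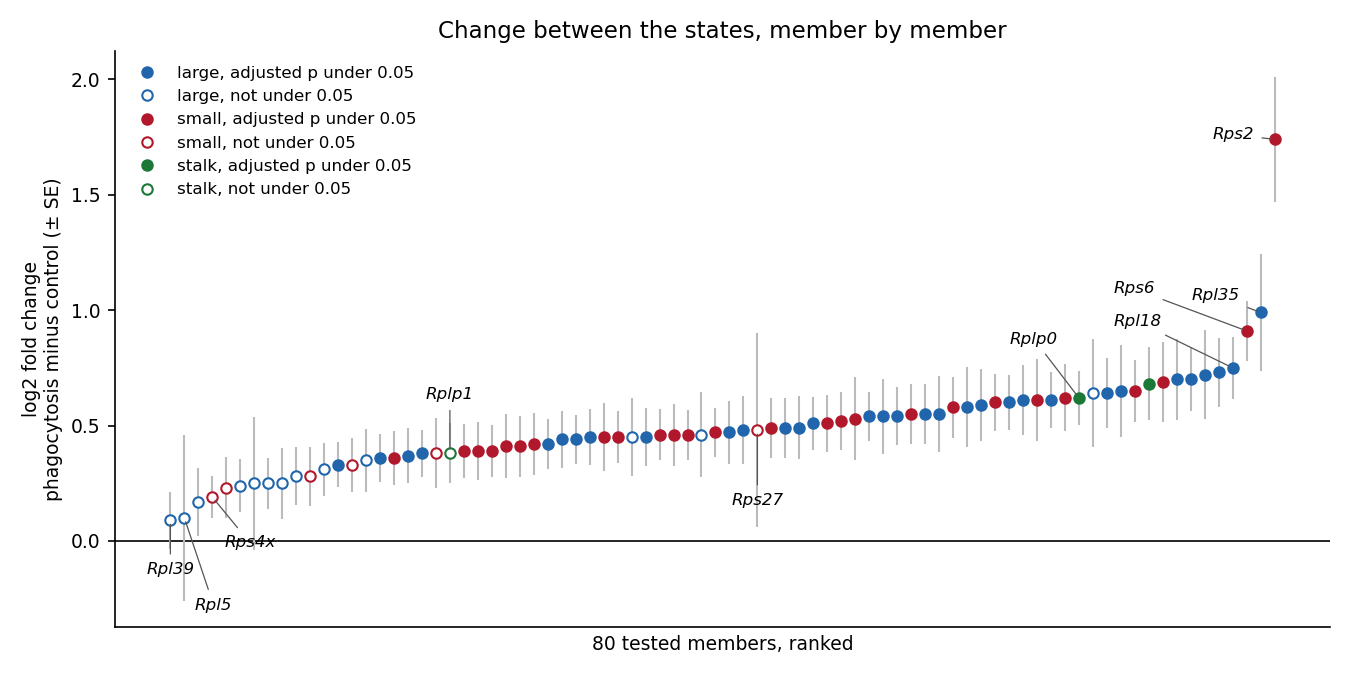
Log2 fold change (phagocytosis minus control, mean of the 4 sex and genotype groups) of the 80 tested members in rank order, with its standard error as a bar. Colour gives the subunit, and filled points have an edgeR adjusted p under 0.05. All 80 points lie above 0, the quartiles at 0.38 and 0.60, with Rps2 alone at 1.74.

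Rps2 (chromosome 17, 24718116 to 24721929, GRCm38), a small-subunit protein near the channel through which the messenger enters, had the largest change. Values here are CPM after TMM normalisation, which scales libraries to a common composition. The 8 controls ran from 248 through a median of 338 to 561 CPM, and the 16 phagocytosis libraries from 382 through 1338 to 1826 CPM. Only female NL4-/- phagocytosis 3, at 382 CPM, lay within the control range, and 15 libraries lay above it. The means of 370 ± 112 and 1239 ± 459 CPM (SD) gave a log2 fold change of 1.74 ± 0.270 (SE), 3.35-fold, with an edgeR adjusted p of 0.000317.

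The NL4-/- females were split for this gene. Their phagocytosis libraries 1 and 2 held 1642 and 1826 CPM, and libraries 3 and 4 held 382 and 588 CPM, beside 360 and 390 CPM in their controls. In WT females the 4 values were 1264, 1808, 1741 and 1420 CPM, beside controls of 316 and 248 CPM. The WT males had 1671, 791, 987 and 892 CPM against 506 and 315 CPM, and the NL4-/- males 1199, 1413, 1446 and 749 CPM against 561 and 264 CPM. With phagocytosis libraries 3 and 4 only, the log2 fold change of Rps2 was 1.37, and with libraries 1 and 2 only it was 2.02.

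Rps2 was set against the rest of the family within each library, as a description. On the log2 scale its level was 0.160 ± 0.324 (SD, n = 8) above the median member in control libraries and 1.33 ± 0.507 (SD, n = 16) above it in phagocytosis libraries. Rps2 was picked for having the largest change, so the wider gap follows from that choice and is no further evidence. Of its 8 annotated transcripts, the coding transcript Rps2-208 held 89.9 to 96.6% of its reads in controls and 82.6 to 98.1% in phagocytosis libraries. Near-identical copies outside the rule held 2.38% of the reads of gene and copies together.

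Rps6 (chromosome 4, 86854660 to 86857412), the small-subunit protein phosphorylated by the S6 kinases downstream of mTOR, had the smallest adjusted p. Controls ran from 245 through 341 to 446 CPM and phagocytosis libraries from 442 through 621 to 1052 CPM, so that 15 of 16 lay above every control. The log2 fold change was 0.91 ± 0.129 (edgeR adjusted p = 1.51e-05). Its processed pseudogene Rps6-ps4 on chromosome 2, identical to it over 750 aligned bases, was level between the states at 257 ± 38.2 and 259 ± 72.1 CPM (log2 fold change 0.01 ± 0.152, edgeR adjusted p = 0.985). With such copies added, Rps6 had 598 ± 74.5 and 913 ± 159 CPM and a log2 fold change of 0.61 ± 0.115 (edgeR adjusted p = 0.000626).

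Rpl18 (chromosome 7, 45715457 to 45720836), a large-subunit protein with hardly any reads in copies (0.0716%), ran from 304 through 424 to 505 CPM in controls and from 464 through 680 to 971 CPM in phagocytosis libraries. Here too 15 of the 16 phagocytosis libraries lay above every control (log2 fold change 0.75 ± 0.133, edgeR adjusted p = 0.000305). Rpl35 (chromosome 2, 39001580 to 39005624), which sits near the exit of the tunnel for the nascent protein, ran from 40.9 through 75.5 to 104 CPM and from 68.8 through 125 to 320 CPM, with 10 libraries above the controls (0.99 ± 0.253, edgeR adjusted p = 0.0121). Without the 3 satellite-rich controls its call was lost at a log2 fold change of 1.08 (edgeR adjusted p = 0.0681). A protein-coding copy, Gm2000, held most of the 68.4% of reads that lay in copies of Rpl35, and with copies the log2 fold change was 0.68 ± 0.157.

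**Figure D3:**
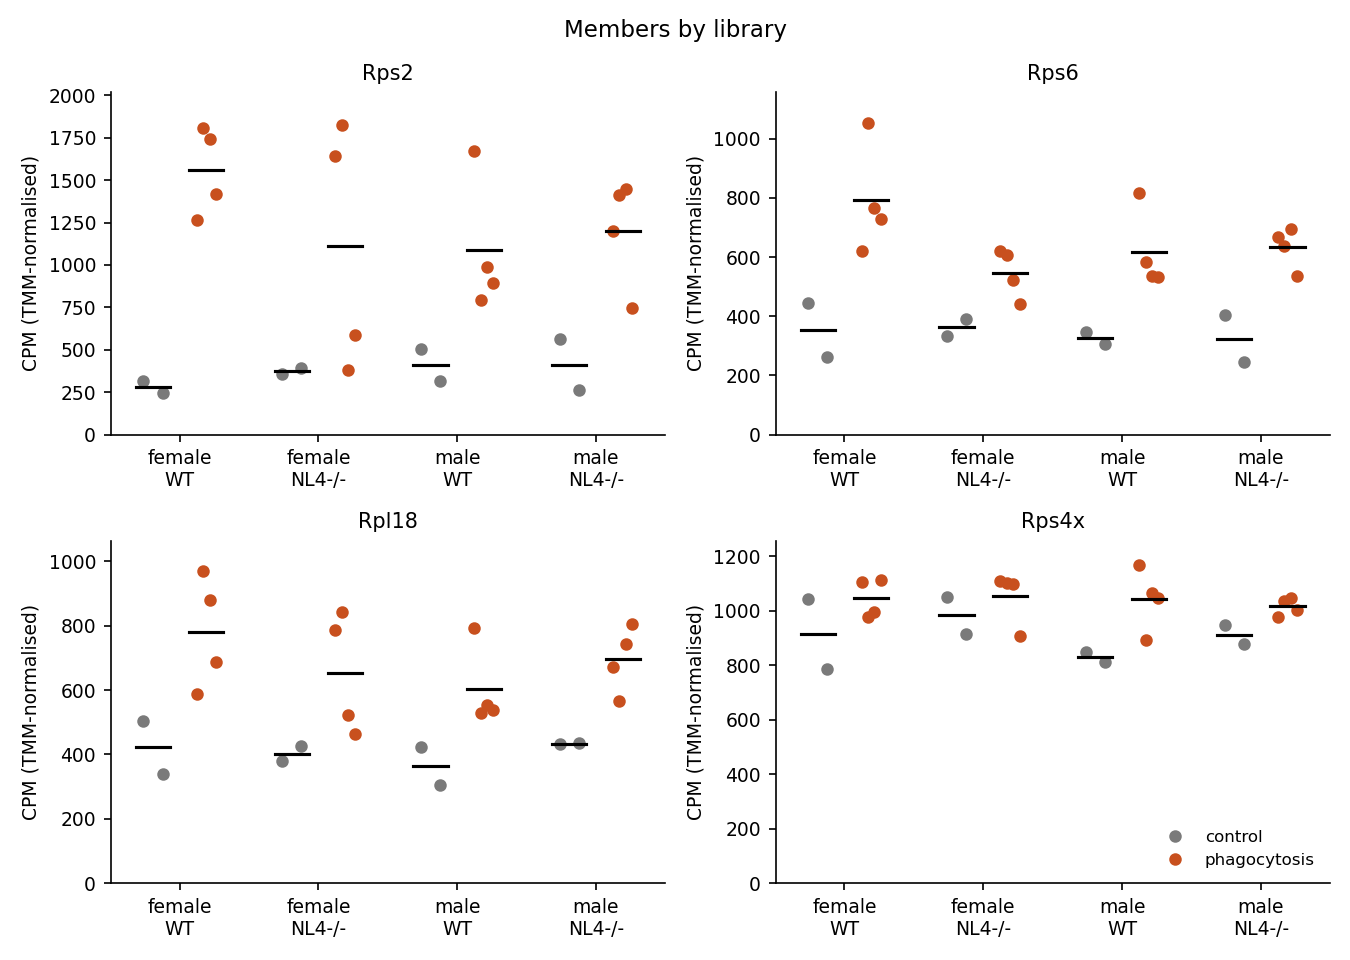
TMM-normalised CPM of Rps2, Rps6, Rpl18 and Rps4x in each library by sex and genotype, on axes that start at 0. Points are libraries, grey for control and orange for phagocytosis, and black lines are group means. Rps2 shows the widest gap and the split of the female NL4-/- phagocytosis libraries, and Rps4x shows overlapping states.

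The stalk proteins form the arm of the large subunit that recruits the elongation factors. Rplp0, its base, went from 1180 ± 155 to 1812 ± 291 CPM (range 940 to 1368 against 1261 to 2252), a log2 fold change of 0.62 ± 0.117 (edgeR adjusted p = 0.000694). Rplp2 went from 322 ± 64.3 to 517 ± 149 CPM (0.68 ± 0.158, edgeR adjusted p = 0.00453), and without the satellite-rich controls its call ended (0.60, edgeR adjusted p = 0.0966). Its partner Rplp1 went from 1048 ± 209 to 1360 ± 248 CPM and stopped just short of the threshold (0.38 ± 0.131, edgeR adjusted p = 0.0501). With DESeq2, which called 14.4% of all genes, Rplp1 passed (adjusted p = 0.0242).

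Among other members, Rpl24, a large-subunit protein at a bridge to the small subunit, rose from 208 ± 23.9 to 339 ± 83.8 CPM (log2 fold change 0.70 ± 0.138, edgeR adjusted p = 0.00106). Rpl29, a large-subunit protein, rose from 342 ± 64.6 to 524 ± 93.0 CPM (0.61 ± 0.120, edgeR adjusted p = 0.000979). Rpsa, a small-subunit protein also known as the laminin receptor precursor, rose from 1051 ± 161 to 1592 ± 318 CPM (0.60 ± 0.122, edgeR adjusted p = 0.00143). Without the satellite-rich controls the call of Rpsa ended (0.53, edgeR adjusted p = 0.0557). Rpl9 was the sole member whose 16 phagocytosis libraries (643 to 1014 CPM) all lay above the 8 controls (443 to 619 CPM), and is named after its values were seen. It had a log2 fold change of 0.54 ± 0.107 (edgeR adjusted p = 0.00112), and 0.796% of all tested genes had all phagocytosis libraries above all controls.

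Levels per length can be compared between genes as mean TPM over the 24 libraries, in which tested members ran from 36.3 for Rpl5 to 2975 for Rplp1. Other high members were the very short Rpl41 (2117 TPM), Rps29 (1787 TPM) and Rps25 (1268 TPM). In CPM between the states, Rpl41 rose by a log2 fold change of 0.73 ± 0.148 (edgeR adjusted p = 0.00141) and Rps29 by 0.39 ± 0.116 (edgeR adjusted p = 0.0226). The call of Rps29 ended without WT control 2 of either sex (highest edgeR adjusted p = 0.0870), without the satellite-rich controls (0.36, edgeR adjusted p = 0.177), with length-scaled counts (0.31, edgeR adjusted p = 0.0612) and with phagocytosis libraries 3 and 4 only (0.32, edgeR adjusted p = 0.0853). Rps25 did not pass (0.33 ± 0.118, edgeR adjusted p = 0.0609). None of these members was among the 4 with the largest change.

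The 4 smallest changes were those of Rpl39, Rpl5, Rpl12 and Rps4x, none of which passed. Rpl39 (chromosome X, 37082520 to 37085402), which lines the exit tunnel, ran from 160 through 193 to 238 CPM in controls and from 163 through 205 to 324 CPM in phagocytosis libraries. The states overlapped almost fully (log2 fold change 0.09 ± 0.123, edgeR adjusted p = 0.716). Relative to the median member the level of Rpl39 was -0.694 ± 0.130 on the log2 scale in controls and -1.12 ± 0.197 in phagocytosis libraries (SD). Rpl39 was picked for having the smallest change, so this shift too follows from the choice. Rps4x (chromosome X, 102184941 to 102189394) ran from 788 through 897 to 1052 CPM and from 893 through 1048 to 1168 CPM (0.19 ± 0.0906, edgeR adjusted p = 0.161), and passed with DESeq2 (adjusted p = 0.0389). Both have few reads in copies, 0.411% for Rpl39 and 0.315% for Rps4x.

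For Rpl5 and Rpl12 nearly all or most reads lay in copies. Rpl5, which binds 5S ribosomal RNA and can bind Mdm2, held 35.7 ± 14.5 and 36.9 ± 19.6 CPM, while its copy Gm15500 on chromosome 7 held 672 ± 103 and 806 ± 125 CPM. Rpl12, a protein at the base of the stalk, held 139 ± 32.9 and 155 ± 43.9 CPM, and its copy Gm10275 on chromosome 10 held 374 ± 99.1 and 584 ± 150 CPM. Both copies are annotated as transcribed processed pseudogenes and match their parents at 100% identity over the aligned 1018 and 634 bases. With copies added, Rpl12 passed (log2 fold change 0.55 ± 0.134, edgeR adjusted p = 0.00552) and Rpl5 did not (0.27 ± 0.111, edgeR adjusted p = 0.104).

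To see how far this went, the reads of every gene outside the rule whose transcript matched a member at 95% identity or more over 60% or more of the copy were added to that member, a setting chosen after the data were seen. It joined 612 copies, 10 of them protein-coding, to 79 members. The copies held 113248 reads beside 623616 of the members, over 20% of the joint reads for 24 members, and more reads than the member itself for 10. Those were Rpl5, Rpl12, Rpl10, Rps23, Rpl27a, Rpl35, Rpl28, Rpl15, Rps12 and Rpl27. How the quantifier divided reads among such sequences was not tested.

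With copies added, 70 of the 80 tested members rose and none fell, beside 13.8% of all genes changed in either direction in that fit. Of the 70, 59 had also risen without the copies, 11 were gained, and Rpl30 was lost (log2 fold change 0.31 ± 0.124, edgeR adjusted p = 0.0978). The spread of the log2 fold changes among members narrowed from an SD of 0.217 to 0.195, and without Rps2 from 0.166 to 0.141. Rps2 stayed at 1.71 ± 0.263, and Rpl39 at 0.08 ± 0.124 remained the lowest. The 10 members that did not pass were Rpl39, Rps27, Rps4x, Rpl21, Rpl7l1, Rpl5, Rpl22l1, Rpl30, Rpl35a and Rpl22.

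**Figure D4:**
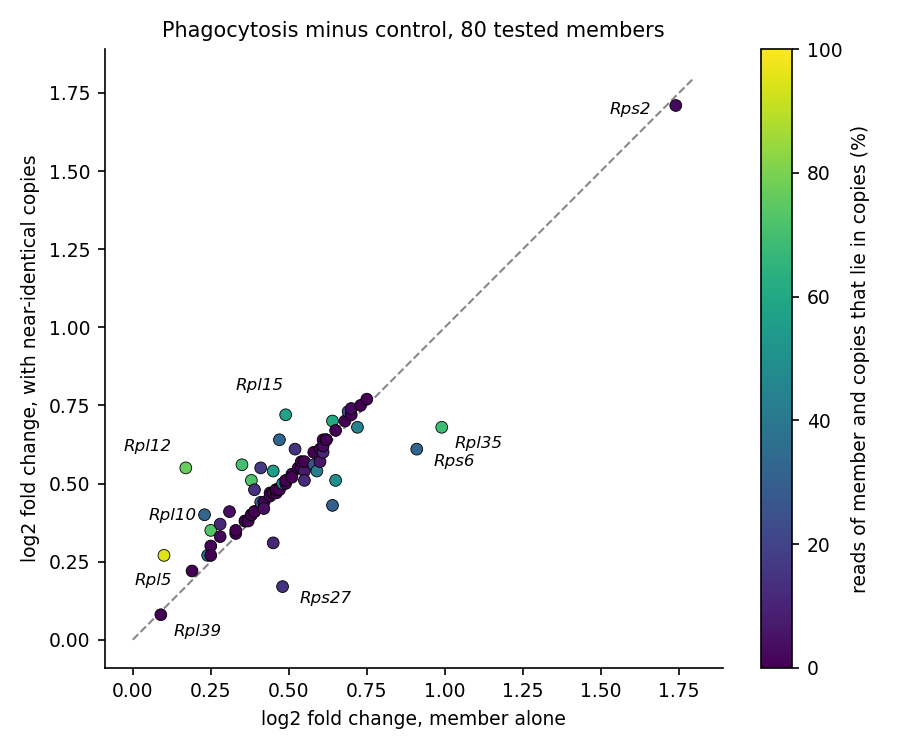
Log2 fold change (phagocytosis minus control) of the 80 tested members fitted on their own reads (horizontal) and with the reads of near-identical copies added (vertical), with the dashed line marking equal values. Colour gives the percent of the joint reads that lie in copies. Rpl12 and Rpl15 lie above the line, Rpl35, Rps6 and Rps27 below it, and Rps2 and Rpl39 on it.

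Rps27, a small-subunit protein, was nearly missing from 2 libraries in which its copy was high. It was at 6.10 CPM in female NL4-/- phagocytosis 2 and 14.6 CPM in male NL4-/- control 1, and between 145 and 413 CPM in the other 22 libraries. In those same libraries the coding retrocopy Rps27rt on chromosome 9, identical over 341 aligned bases, held 393 and 323 CPM, its 2 highest values. The sum of both genes ran from 180 to 363 CPM in controls and from 244 to 413 CPM in phagocytosis libraries, with no library near 0. Rps27 alone had a log2 fold change of 0.48 ± 0.42 (edgeR adjusted p = 0.515) and with all copies 0.17 ± 0.118 (edgeR adjusted p = 0.369).

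**Figure D5:**
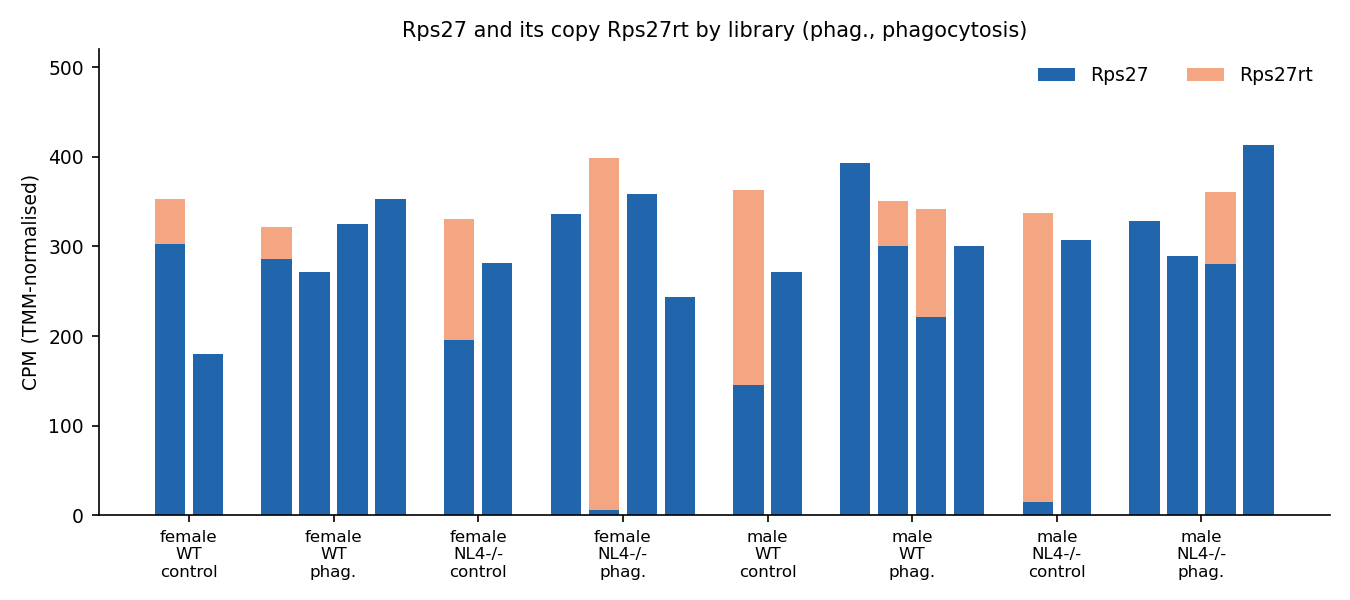
TMM-normalised CPM of Rps27 (blue) and of its copy Rps27rt (orange) stacked for each of the 24 libraries, in order of replicate number within a group. The 2 libraries with almost no Rps27 have the highest Rps27rt, and the stacked height there lies within that of the other libraries.

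Several members are paralogues of a main form. Rps27l, which p53 can induce, rose from 56.5 ± 20.9 to 79.7 ± 20.7 CPM (log2 fold change 0.53 ± 0.180, edgeR adjusted p = 0.0458). This call ended in 8 of 24 fits that left out 1 library: control 2 of each sex and genotype, control 1 or phagocytosis 1 of NL4-/- females, or phagocytosis 2 of WT females or NL4-/- males (highest edgeR adjusted p = 0.131). The call of Rps27l also ended without the satellite-rich controls (0.74, edgeR adjusted p = 0.0575), with length-scaled counts (0.57, edgeR adjusted p = 0.0572) and with phagocytosis libraries 3 and 4 only (0.36, edgeR adjusted p = 0.253). Rpl22l1 had 20.6 ± 5.95 and 25 ± 13.9 CPM (0.25 ± 0.289, edgeR adjusted p = 0.635), and its main form Rpl22 86.8 ± 14.4 and 121 ± 47.0 CPM (0.46 ± 0.184, edgeR adjusted p = 0.0986). Rpl7l1 had 127 ± 27.8 and 150 ± 24.9 CPM (0.25 ± 0.111, edgeR adjusted p = 0.145), and Rpl7 rose from 463 ± 33.8 to 605 ± 88.6 CPM (0.38 ± 0.102, edgeR adjusted p = 0.0118), a call that ended without the satellite-rich controls (0.38, edgeR adjusted p = 0.111).

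The balance of paralogue and main form was set side by side for both states. In libraries with at least 10 reads of each gene, the log2 ratio of Rpl22l1 to Rpl22 was -2.03 ± 0.282 (SD, n = 5) in controls and -2.11 ± 0.410 (SD, n = 12) in phagocytosis libraries. That of Rpl7l1 to Rpl7 was -1.89 ± 0.249 (n = 8) and -2.01 ± 0.205 (n = 16), and that of Rps27l to Rps27 was -2.24 ± 0.752 (n = 7) and -2.03 ± 0.373 (n = 15). Each of these 3 differences is smaller than the spread between libraries. Rpl36al, outside the rule, exceeded Rpl36a by 0.978 ± 0.445 (n = 8) and 0.635 ± 0.419 (n = 16) on this scale, and Rps4l, annotated as a pseudogene, lay at -4.63 ± 0.452 and -4.85 ± 0.428 relative to Rps4x. Rpl3l, Rpl10l and Rpl39l had too few reads for a ratio in any library, with a read in 3, 1 and 8 libraries.

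Within single sex and genotype groups, 2 controls against 4 phagocytosis libraries left few calls. In female WT mice 1 member, Rps6, rose (log2 fold change 1.16 ± 0.259, edgeR adjusted p = 0.0268), beside 0.541% of all genes that rose and 0.581% that changed in either direction, and this call ended with copies added. The median member stood at 0.61, 78 of 80 were above 0, and 57 had an unadjusted p under 0.05 (all genes, 12.1%). DESeq2 called 14 members in female WT mice, and 2.21% of all genes.

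In the other 3 groups edgeR called no member. DESeq2 called 1 in each: Rpl31 in female NL4-/- mice (adjusted p = 0.0488) and Rps6 in both male groups (adjusted p = 0.0220 for WT and 0.0123 for NL4-/-), where it called 1.59%, 0.867% and 1.54% of all genes. The share of all genes called by edgeR was 0.459% in these females, 0.326% in WT males and 0.602% in NL4-/- males. Medians were 0.38, 0.52 and 0.40, and 17, 34 and 14 members had an unadjusted p under 0.05, beside 9.56%, 8.20% and 10.8% of all genes. The smallest p among members belonged to Rpl31 in NL4-/- females (1.27 ± 0.403, edgeR adjusted p = 0.222) and to Rps6 in males, both WT (0.92 ± 0.258, edgeR adjusted p = 0.184) and NL4-/- (0.97 ± 0.261, edgeR adjusted p = 0.0905). The fitted change was above 0 in all 4 groups for 73 members, in 3 groups for 6 and in 2 for Rpl5.

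Genotype was compared within each sex and state, to ask whether loss of neuroligin-4 went with a different level of these genes. No member and 0% of all genes passed in any of the 4 comparisons with edgeR, and DESeq2 called no member (all genes, 0.0408% in female and 0.0510% in male controls, 0.0306% in female and 0% in male phagocytosis libraries). In female phagocytosis libraries the 80 members had a median log2 fold change (NL4-/- minus WT) of -0.20, 66 were below 0, and 8 had an unadjusted p under 0.05 (all genes, 5.20%). The smallest p values there were those of Rpl14 (-0.81 ± 0.276, edgeR adjusted p = 0.938) and Rpl13 (-0.61 ± 0.219, edgeR adjusted p = 0.938). The share of reads was 4.13% ± 0.805 in NL4-/- and 4.73% ± 0.839 in WT females (SD, n = 4 each), so the difference was smaller than the spread between libraries.

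In male phagocytosis libraries the median was 0.06 and the shares were 4.38% ± 0.228 in NL4-/- and 4.14% ± 0.980 in WT mice. In controls the medians were 0.06 in females and 0.13 in males, with shares of 2.97% ± 0.175 against 2.93% ± 0.797 and 3.03% ± 0.0223 against 2.82% ± 0.786 (SD, n = 2). At an unadjusted p under 0.05 there were 0 members in female controls, 1 in male controls and 0 in male phagocytosis libraries, beside 2.14%, 3.35% and 4.74% of all genes.

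The interactions ask whether a contrast differs between groups. The genotype by state interaction had a median over members of -0.27 in females and -0.06 in males, and the genotype by sex interaction within phagocytosis libraries had 0.27, with 73 of 80 above 0. No member and 0% of all genes passed in any of the 3 with edgeR. DESeq2 called no member, beside 0.0408%, 0.0204% and 0.0204% of all genes. With edgeR 2, 0 and 2 members had an unadjusted p under 0.05, beside 2.57%, 2.51% and 4.76% of all genes. The median of the genotype by sex interaction was 0.69 with phagocytosis libraries 3 and 4 only and -0.16 with libraries 1 and 2 only. For the mean difference of males from females, edgeR and DESeq2 called no member (all genes, 0.0612% and 0.194%). There 2 members had an unadjusted p under 0.05 (all genes, 4.40%), and the median was -0.04.

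Some genes lie close to the rule but outside it. For them and for the gene lists below, results of alternative fits are not given here. Whether their calls hold in such fits, as without the satellite-rich controls, was not tested. Fau, whose product is a ribosomal protein fused to a ubiquitin-like part, rose between the states by a log2 fold change of 0.50 ± 0.115 (edgeR adjusted p = 0.00401). Rack1, a scaffold on the small subunit, rose by 0.52 ± 0.117 (edgeR adjusted p = 0.00313), and Rpl36al did not pass (0.28 ± 0.135, edgeR adjusted p = 0.173).

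Of 20 other TOP messengers, Fau and Rack1 among them, 12 rose and 1 fell, with a median of 0.44, where 8.41% of all tested genes rose and 5.18% fell. The gene that fell, Eif4a2, is named after its values were seen (140 ± 29.9 to 96.0 ± 29.6 CPM, log2 fold change -0.53 ± 0.174, edgeR adjusted p = 0.0400). Eef1g, a subunit of the elongation factor that loads transfer RNA, rose from 522 ± 85.8 to 897 ± 197 CPM (log2 fold change 0.77 ± 0.126, edgeR adjusted p = 0.000127). The initiation factor gene Eif3f rose from 87.2 ± 17.3 to 178 ± 56.7 CPM (1.03 ± 0.193, edgeR adjusted p = 0.000839), and Eef1a1 from 3424 ± 320 to 4681 ± 404 CPM (0.45 ± 0.0922, edgeR adjusted p = 0.00145).

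Of 36 ribosome biogenesis genes, 10 rose (all tested genes, 8.41%) and none fell, with a median of 0.30. Fbl, which methylates ribosomal RNA, rose from 32 ± 16.3 to 73.2 ± 31.4 CPM (1.26 ± 0.272, edgeR adjusted p = 0.00299), and the nucleolar protein gene Ncl from 225 ± 26.6 to 364 ± 135 CPM (0.67 ± 0.160, edgeR adjusted p = 0.00556). Mitochondrial ribosomal protein genes, which serve the separate ribosome of the mitochondrion, were called higher in 6 of 77 cases, a share near the 8.41% of all tested genes, and lower in none, with a median of 0.23. The smallest p among them belonged to Mrpl21, which rose from 23 ± 6.45 to 38.5 ± 8.18 CPM (0.76 ± 0.189, edgeR adjusted p = 0.00653).

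Among 15 growth control genes upstream, edgeR called 0, beside 13.6% of all tested genes in either direction (median log2 fold change -0.07). The list is too short to tell 0 from that share. At an unadjusted p under 0.05 there was 1 gene, and the share of all genes at that level is not given here. The smallest p belonged to Rheb, the GTPase that activates mTOR complex 1, from 31.0 ± 9.0 to 44.7 ± 15.4 CPM (log2 fold change 0.55 ± 0.199, edgeR adjusted p = 0.0652), and to Larp1 (0.39 ± 0.191, edgeR adjusted p = 0.191). These levels are of messenger RNA, and neither translation nor mTOR activity was measured.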

How the data were processed

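The files give, for each library and transcript, columns per the file headers: length, effective length, the authors' expected count of reads (not normalised, not always whole) and the authors' TPM, scaled per length. The sources used here do not name the quantifier, its index or any read filter. Transcripts were matched to GENCODE vM21 (GRCm38): 116023 of 116945 matched. Expected counts were summed per gene and rounded, and tested with edgeR 4.0.16 (TMM, filterByExpr on the groups at its minimum of 10, quasi-likelihood F test, all 24 libraries and 8 group means in 1 fit, Benjamini-Hochberg over 9803 genes, threshold 0.05). Tests are two-sided. Without labels tying libraries to animals, p-values measure the spread between libraries. DESeq2 1.42.0, other scalings, filters and library sets were alternatives, and copies were matched with blastn 2.17.0. The fit was tested on simulated data. TPM served levels per length and length-scaled counts.

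The members, gene lists and tests were chosen with earlier results of these data known. Genes named are, between the states, the 6 smallest adjusted p, the 4 highest and 4 lowest log2 fold changes, the 5 highest TPM, the stalk genes, Rpsa, Rack1, untested members and paralogues with their main forms. Elsewhere they are the members that passed (up to 6) or the 2 smallest p, and in each gene list up to 4 that passed or 2. The growth control, TOP, biogenesis and mitochondrial lists came from general knowledge. Marker sums are scaled to library totals alone. Some genes that this choice would name are not reported here.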

Additional observations from a re-analysis of the deposited data

Results flagged for a closer look

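In the 4 phagocytosis groups, values of single libraries far from the other 3 were looked for with Dixon's test in 52 sets of 4 libraries, in which chance alone flags about 1 in 20. Male WT phagocytosis 1 stood above its group in the share of reads, 5.60% against 3.56 to 3.79%, and with copies added, 6.60% against 4.22 to 4.54%. The same library was high in Rpl35 (243 CPM against 95.5 to 115), in Rpl35 with copies (697 CPM against 319 to 368) and in Rpl18 (794 CPM against 529 to 552). Male NL4-/- phagocytosis 2 stood below its group in the share of reads, 4.04% against 4.46 to 4.53%, and with copies, 4.71% against 5.28 to 5.32%; with satellite-like reads left out of the total it had 4.83%, the highest of its group. Female NL4-/- phagocytosis 4 was low in Rps4x, 908 CPM against 1100 to 1108.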

How the results depend on the processing

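Between the states, averaged over sex and genotype, 60 members rose. The count was 22 without the control libraries over 20% satellite-like, 38 with phagocytosis libraries 3 and 4 only, and 36 to 66 with 1 library left out, lowest without female WT control 2. It stayed within 1.5 times of 60 under other scalings, no filter, length-scaled counts, copies added and DESeq2. In those fits no member fell, and 36 members passed in all 24 fits that left out 1 library. The share of all genes that passed in all 24 is not given here. The count of 36 therefore cannot be read as particular to the members. With phagocytosis libraries 3 and 4 only, Rpl39 (log2 fold change -0.01) and Rpl5 (-0.15) changed sign.

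In female WT mice the 1 call became 14 with no filter, 15 with the replicate block, 14 with DESeq2, 9 with phagocytosis libraries 3 and 4 only, 2 with libraries 1 and 2 only and 3 with only its groups in the fit. It became 0 with length-scaled counts, -ps pseudogenes added or near-identical copies added, and was 0 to 5 with 1 library left out. In female NL4-/- mice 0 became 1 with no filter, the block or DESeq2 and 5 with libraries 1 and 2 only. In male WT mice 0 became 2 with no filter and 1 with the block, DESeq2 or libraries 1 and 2 only. In male NL4-/- mice 0 became 1 with these 4 settings and with only its groups in the fit. With 1 library left out the counts were 0 to 1 in female NL4-/-, 0 in male WT and 0 to 1 in male NL4-/- mice, where a lone control is assumed to vary like other groups. For genotype, interactions and sex every setting run gave 0. Except for DESeq2, the share of all genes called in these alternative fits is not given here. Their counts cannot therefore be read as particular to the members. The causes of these differences were not tested.

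The share of reads differed by 1.41 percentage points between the states, and by 1.31 to 1.49 with 1 library left out. As a share of TPM it differed by 2.94 points, but the states overlapped more. Male WT control 1, at 6.60% of TPM, lay above male WT phagocytosis 2 and 3, at 5.12 and 6.56%. In the other sex and genotype groups every phagocytosis library lay above both controls.

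Replicate numbers carry no stated meaning. Deviations of same-numbered phagocytosis libraries correlated between -0.101 and 0.176 and those of controls between -0.117 and 0.0946. Differently numbered phagocytosis libraries of different groups correlated between -0.171 and 0.206. In controls, differently numbered libraries gave the same values with the sign reversed, so they add no comparison. Of 16 phagocytosis libraries, 5 correlated best with their own number, and the chance level is not given here. Only libraries of the same state were compared, so these values cannot decide whether the numbers pair the samples. With the replicate block 70 members rose between the states, and the share of all genes called in that fit is not given here.

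Depth limits low members: Rpl5 and Rpl22l1 had 599 and 377 reads over all libraries. Intervals and floors would cover counting error only, since amplified reads without identifiers are not independent molecules.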
